A study of Mus musculus with 6 samples.

Results

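The set described here holds 10 mouse genes of the aldehyde and alcohol dehydrogenase families: Aldh1a1, Aldh1a7, Aldh2, Aldh3a1, Aldh3a2, Aldh3b1, Aldh3b2, Aldh3b3, Adh1 and Adh7. Its members were picked by symbol among the 19938 genes with a single annotated symbol, leaving out Aldh1a2 and Aldh1a3, and all 10 were measured. For the member with several array features, Aldh3b3, the feature with the highest mean over the 6 arrays was used. The genes were put together with their earlier results known, so their differences between genotypes and the p-values beside them are descriptions and not independent evidence.

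RNA of whole bladders from mouse embryos at E14.5 was measured on 6 Affymetrix Mouse Gene ST arrays, each holding 1 sample. In the Klf5-deleted group (labelled Klf5 ∆/∆; 3 samples) the gene of the epithelial zinc-finger protein Klf5 was deleted on both alleles. The control group (labelled Klf5+/+ShhGfpCre+; 3 samples) was wild type for Klf5 and had the ShhGfpCre allele, from which Cre recombinase is made wherever Shh is expressed, bladder epithelium included. Each sample pooled 2 bladders. The labels used here do not say whether the Klf5-deleted embryos carried the same Cre allele; it was taken that they did, so that Klf5 was lost only in the Shh lineage and the rest of the bladder wall kept it. ShhGfpCre is known as a knock-in that inactivates the Shh allele it sits in. Litters are not named in the labels, so pools may share a litter and may not be independent. A p-value here sets the difference between genotypes against the spread among pools of bladders only.

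Alcohol dehydrogenases oxidise alcohols, among them ethanol and retinol, to aldehydes, and aldehyde dehydrogenases oxidise aldehydes to carboxylic acids. Together they clear reactive aldehydes from the diet, from lipid peroxidation and from fatty alcohol and sphingolipid breakdown, and some members make retinoic acid from retinol. In the bladder, retinoic acid made by the mesenchyme is known to take part in the specification of the urothelium, its inner epithelial lining.

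Several members have close paralogs whose sequences differ little. The promoter of Aldh1a7 is shown beside that of Aldh1a1 because Aldh1a7 was much lower in Klf5-deleted bladders and Aldh1a1 was not. RefSeq promoter windows of GRCm38.p6 matched 7 of the 10 members by symbol; Aldh2, Aldh3a1 and Aldh3b2 had none. Each sequence below gives the 250 bases before an annotated start site, read 5′ to 3′ on the strand of the gene. The Aldh1a7 window is chr19:20727557-20727806 on the minus strand, and the Aldh1a1 window, from the downstream of its 2 annotated start sites, is chr19:20601718-20601967 on the plus strand. Capitals mark the longest run of letters that both share.
Aldh1a7: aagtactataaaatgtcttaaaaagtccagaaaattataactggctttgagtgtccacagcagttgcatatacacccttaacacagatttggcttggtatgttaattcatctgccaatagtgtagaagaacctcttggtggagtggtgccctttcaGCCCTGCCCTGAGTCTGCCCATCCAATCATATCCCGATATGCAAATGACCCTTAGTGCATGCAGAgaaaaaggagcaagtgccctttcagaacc
Aldh1a1: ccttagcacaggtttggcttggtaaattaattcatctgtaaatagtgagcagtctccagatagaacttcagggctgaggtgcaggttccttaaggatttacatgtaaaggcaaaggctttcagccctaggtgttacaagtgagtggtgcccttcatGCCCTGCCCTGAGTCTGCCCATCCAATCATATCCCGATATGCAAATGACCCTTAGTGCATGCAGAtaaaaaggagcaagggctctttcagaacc
The shared run is 65 bases long and ends 29 bases before the start site in both genes. In the best local alignment of the windows, 106 of 109 aligned bases (97.2%) were identical, all of them in the part nearest the start site. The run holds a CCAAT box and ATGCAAAT, the octamer motif. Searched on both strands, CCAAT occurs in 33.8% and ATGCAAAT in 1.6% of the 32851 windows of this length in the table. The upstream start site of Aldh1a1 showed no such likeness to Aldh1a7: its best local alignment covered 17 bases.

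Windows of Adh1 and its neighbour Adh7, and of Aldh3b3 and its neighbour Aldh3b1, are shown because in each pair the first gene was much lower in Klf5-deleted bladders and the second was not. Capitals mark CACCC on either strand, the core of the boxes that Krüppel-like factors are known to bind. The windows are chr3:138277335-138277584 (plus strand) for Adh1, chr3:138217523-138217772 (plus strand) for Adh7, chr19:3958558-3958807 (plus strand) for Aldh3b3 and chr19:3929779-3930028 (minus strand) for Aldh3b1.
Adh1: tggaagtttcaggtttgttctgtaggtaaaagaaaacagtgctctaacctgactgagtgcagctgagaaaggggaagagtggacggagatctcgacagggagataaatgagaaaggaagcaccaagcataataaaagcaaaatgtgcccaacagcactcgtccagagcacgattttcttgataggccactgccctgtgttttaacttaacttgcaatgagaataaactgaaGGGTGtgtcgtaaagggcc
Adh7: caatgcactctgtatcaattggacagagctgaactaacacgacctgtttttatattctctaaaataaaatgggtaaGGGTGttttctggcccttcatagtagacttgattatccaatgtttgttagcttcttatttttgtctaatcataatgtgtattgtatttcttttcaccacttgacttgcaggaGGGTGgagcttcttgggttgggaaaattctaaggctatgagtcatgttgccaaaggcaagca
Aldh3b3: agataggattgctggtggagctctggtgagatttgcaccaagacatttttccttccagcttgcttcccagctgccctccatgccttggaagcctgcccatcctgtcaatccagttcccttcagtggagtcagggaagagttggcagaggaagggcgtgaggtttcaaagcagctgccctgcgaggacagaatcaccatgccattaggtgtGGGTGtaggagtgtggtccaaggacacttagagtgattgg
Aldh3b1: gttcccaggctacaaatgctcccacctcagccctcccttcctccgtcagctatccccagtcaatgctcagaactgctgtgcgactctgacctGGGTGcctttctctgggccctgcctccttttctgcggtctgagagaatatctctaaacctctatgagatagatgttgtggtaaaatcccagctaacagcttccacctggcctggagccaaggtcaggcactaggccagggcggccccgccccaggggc
CACCC occurred 1 time in Adh1, Aldh3b3, Aldh3b1 and Aldh1a7, 2 times in Adh7, 3 times in Aldh3a2 and in neither window of Aldh1a1. At least 1 match is present in 52.0% of all windows of the table. The GC box GGGCGG, found on either strand in 32.7% of all windows, occurred 2 times in Aldh3b1, 1 time in Aldh3a2 and not in the windows of Adh1, Adh7, Aldh3b3, Aldh1a7 or Aldh1a1.

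Levels are the deposited log2 values, normalised across arrays by RMA (robust multi-array averaging), so a difference of 1 is 2-fold; adjusted p-values are by Benjamini-Hochberg over all 19938 genes. Klf5 was lower in Klf5-deleted bladders by 0.59 on the log2 scale, with an adjusted p of 0.0381 by limma, which fits a linear model to each gene and shares the spread across genes; the call was lost without any array other than control 2 (adjusted p of 0.0847 to 0.156). Which part of Klf5 the feature covers was not analysed here. Of 17 general epithelial markers 14 fell, as did 9 of 13 markers of differentiated urothelium, and their array means lay at 8.88 to 9.18 and 8.51 to 8.68 in Klf5-deleted and at 10.08 to 10.47 and 10.05 to 10.51 in control bladders. Control 2 stood apart in transcripts of other tissues: the mean of 10 placental and decidual genes was 9.80 there, against 5.42 to 8.38 on the Klf5-deleted arrays and 5.43 and 6.26 on the other controls, and the mean of 11 liver and yolk sac genes was 10.93, against 8.97 to 9.97 in Klf5-deleted bladders and 8.80 and 9.41 on the other controls. Over all genes, 318 fell and 77 rose past an adjusted p of 0.05 by limma. Centring each array on the median of 7 housekeeping genes moved every difference up by the same 0.21, and 261 fell and 1372 rose. That shift rests on the middle value of the 7 genes on each array. The differences of the 7 genes had a median of -0.01. Their means were 12.41 to 12.46 in Klf5-deleted bladders and 12.48 to 12.54 in controls.

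Of the 10 dehydrogenases, 4 were lower in Klf5-deleted bladders past the threshold, none was higher, and 6 did not pass. The 4 were Aldh1a7, Aldh3b2, Adh1 and Aldh3b3, each at least 2-fold lower and with no overlap between the groups. Over all genes 1.59% fell, 0.527% fell at least 2-fold, and 11.8% had every Klf5-deleted array below every control array; as the set was chosen with these differences known, nothing is read from its counts. The median difference of the 10 was -0.21 on the log2 scale, against -0.01 over all 19938 genes. In whole bladders, fewer cells of a type and less RNA per cell cannot be told apart.

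**Figure D1:**
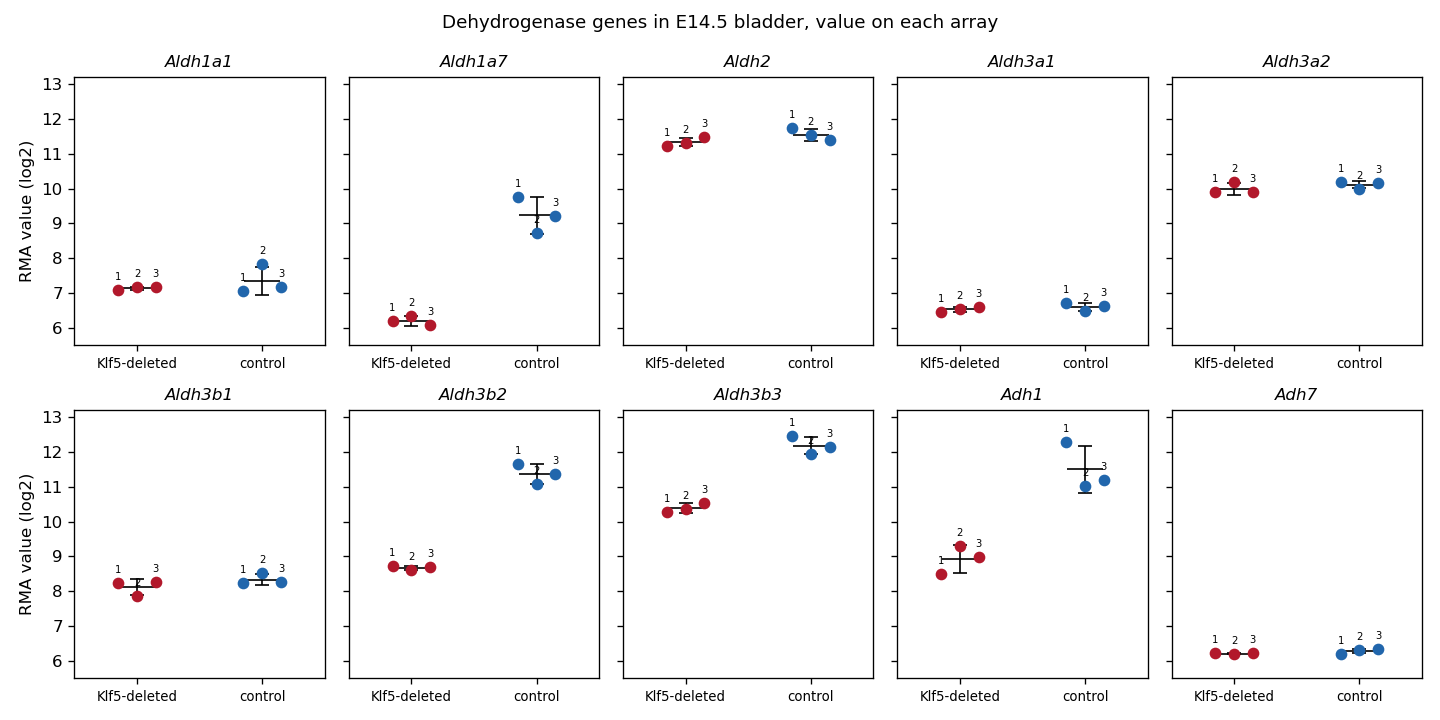
Deposited log2 value of each of the 10 dehydrogenase genes on the 3 Klf5-deleted and 3 control arrays (points, numbered by replicate), with mean and SD as bars. Aldh1a7, Aldh3b2, Aldh3b3 and Adh1 lie lower on every Klf5-deleted array than on every control array, and the other 6 overlap; levels are not comparable between genes.

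Aldh1a7, a rodent gene beside Aldh1a1 whose enzyme is known to oxidise acetaldehyde and to act little on retinal, read 6.19, 6.35 and 6.08 on the Klf5-deleted arrays and 9.77, 8.73 and 9.20 on the control arrays. The 3 Klf5-deleted arrays lay within 0.28 of each other and the controls spread over 1.04, with control 1 highest and control 2 lowest. The means were 6.21 ± 0.14 in Klf5-deleted and 9.23 ± 0.52 in control bladders (SD, n = 3 each). The difference was -3.02 (95% confidence interval -3.58 to -2.47; adjusted p = 0.00173 by limma), or 8.13-fold lower, the fifth largest fall of all genes. Differences between dim signals come out smaller after RMA, as is generally known.

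Aldh1a1, a cytosolic enzyme that makes retinoic acid from retinal, showed no such pattern. It read 7.10, 7.18 and 7.16 in Klf5-deleted bladders, against 7.06, 7.82 and 7.16 in controls. Control 2 stood above the other 5 arrays, which lay within 0.11 of each other. The difference was -0.21 (95% confidence interval -0.64 to 0.23; adjusted p = 0.691 by limma) and was 0.03 without control 2, the array rich in placental and liver transcripts. The part of those transcripts in its reading was not tested. The fall of Aldh1a7 exceeded that of Aldh1a1 by 2.82 on the log2 scale (SD within groups 0.65); every Klf5-deleted array lay beyond every control array in the Aldh1a7 to Aldh1a1 ratio. The exact permutation p was 0.1, two-sided, the smallest that 3 against 3 arrays allow, and 0.125 adjusted over the 5 paralog pairs compared. Aldh1a1 was dim on all arrays, against a median level of 8.45 over all genes, and may have had little room to fall. This pair difference therefore mainly restates the fall of Aldh1a7. The 2 transcripts have close sequences and which bases the features cover was not analysed here, so reading of one transcript by the feature of the other could make them look more alike than they are.

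Aldh3b2, known in mouse as an enzyme of lipid droplets that oxidises long-chain fatty aldehydes, read 8.72, 8.61 and 8.71 in Klf5-deleted bladders and 11.65, 11.08 and 11.37 in controls. Within each group the arrays lay close together and the groups were far apart. The means were 8.68 ± 0.06 in Klf5-deleted and 11.37 ± 0.29 in control bladders (SD, n = 3 each). The difference was -2.69 (95% confidence interval -3.01 to -2.37; adjusted p = 0.000798 by limma), or 6.44-fold lower, and it ranked as the tenth largest fall.

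Aldh3b3, a close relative that in mouse is known from the plasma membrane, read 10.28, 10.35 and 10.54 in Klf5-deleted bladders and 12.44, 11.94 and 12.16 in controls. Its means were 10.39 ± 0.13 in Klf5-deleted and 12.18 ± 0.25 in control bladders (SD, n = 3 each). It was 3.46-fold lower (log2 difference -1.79, 95% confidence interval -2.11 to -1.48; adjusted p = 0.00141 by limma).

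Aldh3b1, the third gene of this group and an enzyme of medium- and long-chain aldehydes made by lipid peroxidation, read 8.25, 7.86 and 8.28 in Klf5-deleted bladders and 8.24, 8.52 and 8.25 in controls. The groups overlapped, as only Klf5-deleted 2 lay below all controls. The difference was -0.21 (95% confidence interval -0.52 to 0.10; adjusted p = 0.547 by limma). The fall of Aldh3b2 exceeded that of Aldh3b1 by 2.48 (SD within groups 0.33) and that of Aldh3b3 by 0.90 (SD 0.10). Neither comparison had overlapping groups, and each had an exact permutation p of 0.1, adjusted 0.125.

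The features of Aldh3b3 disagreed in size. The array has 3 features annotated to Aldh3b3 alone and a further one shared with Aldh3b2. In a fit of all 35557 features, the feature used above differed by -1.79 (adjusted p = 0.00917 by limma). Another Aldh3b3 feature read 7.03, 7.08 and 6.10 in Klf5-deleted bladders and 9.98, 9.05 and 9.45 in controls, a difference of -2.75 (adjusted p = 0.0327 by limma). The third read 6.60, 6.30 and 6.84 in Klf5-deleted bladders against 6.66, 6.78 and 6.96 in controls, with overlapping groups and a difference of -0.22 (adjusted p = 0.647 by limma). The shared feature read 9.33, 9.27 and 8.99 in Klf5-deleted bladders and 12.58, 12.19 and 12.38 in controls. Its difference, -3.19 (adjusted p = 0.00425 by limma), was larger than that of any feature of Aldh3b2 or Aldh3b3 alone. With the mean of its 3 features standing for Aldh3b3, the fall of Aldh3b2 exceeded that of Aldh3b3 by 1.10. That mean includes the third feature, at -0.22. By the feature at -2.75, Aldh3b3 fell about as far as Aldh3b2 (-2.69), so which of the 2 genes fell further depends on the feature. Transcripts of these close relatives may be read by each other's features, which was not tested.

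**Figure D2:**
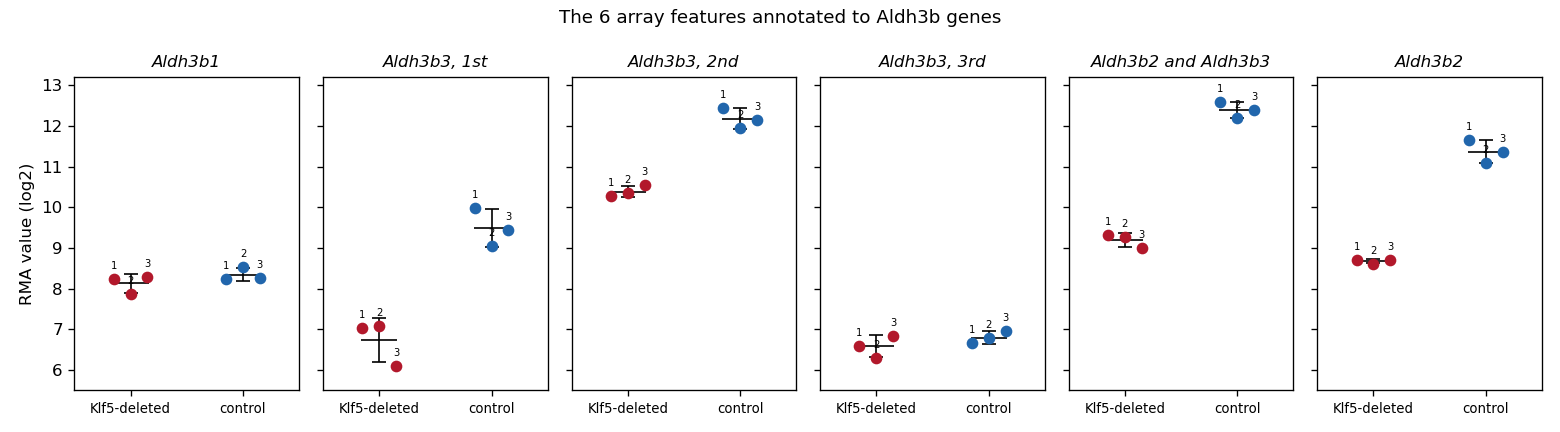
Log2 value on each array of the 6 features annotated to Aldh3b genes, Klf5-deleted left of control, with mean and SD as bars. The first and second Aldh3b3 features, the shared feature and the Aldh3b2 feature are lower on every Klf5-deleted array, while Aldh3b1 and the third Aldh3b3 feature overlap.

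Adh1, the class I alcohol dehydrogenase that oxidises ethanol and retinol, read 8.50, 9.29 and 8.99 in Klf5-deleted bladders and 12.28, 11.03 and 11.21 in controls. It varied more within groups than the other members that fell, with control 1 more than 1 log2 unit above the other controls and Klf5-deleted 1 the lowest array. The means were 8.92 ± 0.40 in Klf5-deleted and 11.51 ± 0.67 in control bladders (SD, n = 3 each). The difference was -2.58 (95% confidence interval -3.38 to -1.79; adjusted p = 0.0125 by limma), or 5.99-fold lower. Without Klf5-deleted 1 the difference was -2.37 and the adjusted p 0.0608 by limma, and with a robust, intensity-dependent variance prior the adjusted p was 0.0595. Adh1 is also abundant in liver; the liver and yolk sac list was highest on control 2, where Adh1 was the lowest of the controls, and the part of liver transcripts in the Adh1 readings was not tested.

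Adh7, the class IV enzyme of stomach and other epithelia that acts on retinol, read 6.22, 6.19 and 6.22 in Klf5-deleted bladders and 6.20, 6.31 and 6.34 in controls. The groups overlapped and all arrays lay within 0.15 of each other. The difference was -0.07 (95% confidence interval -0.22 to 0.08; adjusted p = 0.676 by limma). The fall of Adh1 exceeded that of Adh7 by 2.51 (SD within groups 0.60), without overlap of the groups, at an exact permutation p of 0.1, adjusted 0.125. Adh7 was dim on all arrays, against a median level of 8.45 over all genes, and may have had little room to fall. The pair difference therefore mainly restates the fall of Adh1.

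Aldh2, the mitochondrial enzyme that clears acetaldehyde, read 11.23, 11.31 and 11.47 in Klf5-deleted bladders against 11.73, 11.54 and 11.39 in controls. Control 3 lay among the Klf5-deleted arrays, and the difference of -0.22 (95% confidence interval -0.47 to 0.03; adjusted p = 0.414 by limma) did not pass. Aldh3a2, the fatty aldehyde dehydrogenase of the endoplasmic reticulum, read 9.91, 10.20 and 9.89 in Klf5-deleted bladders and 10.19, 9.99 and 10.16 in controls. Its groups overlapped and it differed by -0.12 (95% confidence interval -0.35 to 0.12; adjusted p = 0.684 by limma). Aldh3a1, best known as an abundant protein of the cornea, read 6.45, 6.55 and 6.59 in Klf5-deleted bladders against 6.71, 6.49 and 6.63 in controls, a difference of -0.08 (95% confidence interval -0.27 to 0.11; adjusted p = 0.726 by limma). The differences of Aldh3a1 and Aldh3a2 stood 0.04 apart (SD within groups 0.12; exact permutation p = 0.7, also after adjustment). Aldh3a1 was dim on all arrays, against a median level of 8.45 over all genes, and may have had little room to fall. With arrays centred on housekeeping genes, the differences of Aldh1a1, Aldh3a1, Aldh3a2, Aldh3b1 and Adh7 turned to between 0.00 and 0.14. That of Aldh2 moved to -0.0057, so a direction is given for none of these genes.

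Members and the rest of both families were then set side by side. All 18 other Aldh and Adh genes listed were measured; 1 rose, none fell and 17 did not pass, where 1.98% of all genes passed in either direction and 0.386% rose. Their median difference was -0.10, and 11 lay below 0 (53.5% of all genes did). With arrays centred on housekeeping genes 1 lay below 0, but the median difference over all genes was then 0.20. Aldh1a2, the retinaldehyde dehydrogenase known from the mesenchyme, read 11.87, 11.99 and 11.68 in Klf5-deleted bladders and 11.28, 11.19 and 11.18 in controls. Every Klf5-deleted array lay above every control array, with a difference of 0.63 (SE 0.09, adjusted p = 0.0173 by limma); leaving out either of the first 2 Klf5-deleted arrays, or control 1 or 3, ended the call, with adjusted p of 0.0552 to 0.0909. Aldh1l1, a folate enzyme, read 7.76, 7.72 and 7.75 in Klf5-deleted bladders and 8.07, 8.14 and 7.90 in controls, without overlap, and its difference of -0.29 did not pass (adjusted p = 0.133 by limma). Adh5, the class III enzyme that clears formaldehyde, differed by -0.21 (adjusted p = 0.379 by limma).

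**Figure D3:**
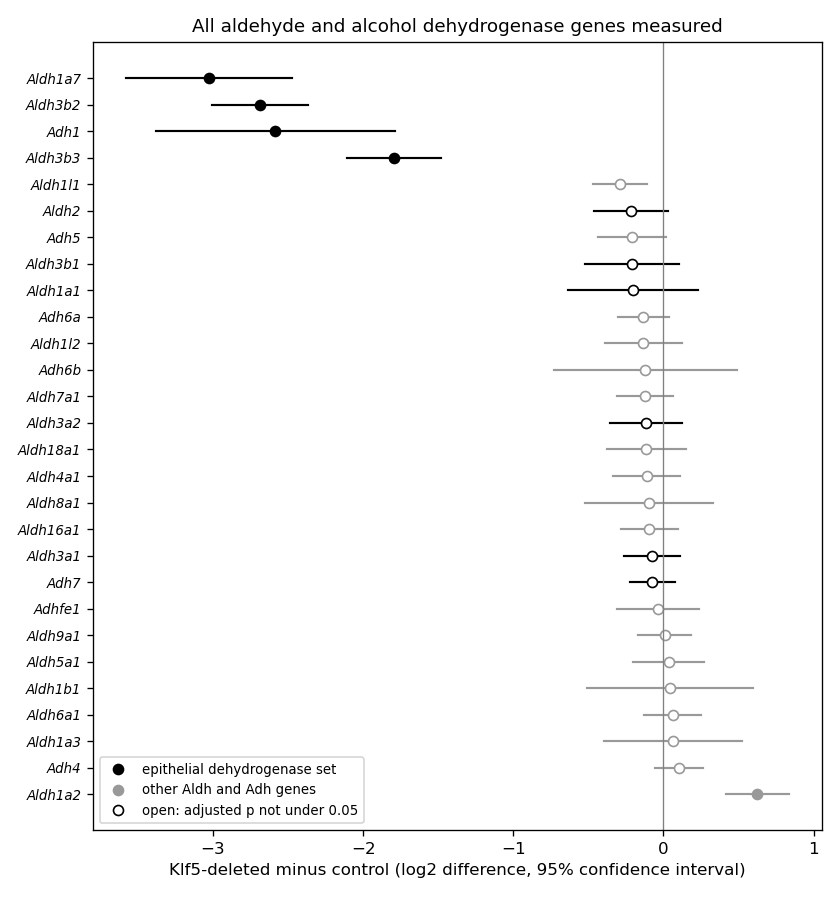
Difference (Klf5-deleted minus control, log2) with its 95% confidence interval for all 28 Aldh and Adh genes, the 10 members in black and the other 18 in grey; filled points passed an adjusted p of 0.05. Aldh1a7, Aldh3b2, Adh1 and Aldh3b3 lie between -3.02 and -1.79, Aldh1a2 at 0.63, and the other 23 between -0.29 and 0.10.

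The genes that fell sit in clusters of relatives, by their order in RefSeq among the tested coding genes; the flanking genes were taken by position after the members' values were seen. On chromosome 3 the order is Adh7, Adh1, Adh6a, Adh6b, Adh4 and Adh5. Adh1 fell by 2.58, and its 5 relatives differed by -0.21 to 0.10 without passing. The flanking Trmt10a, 4930579F01Rik, Metap1 and Eif4e differed by -0.06 to 0.12. On chromosome 19 the order is Aldh3b1, Unc93b1, Aldh3b3 and Aldh3b2, and Unc93b1, between the relatives, differed by -0.20 (adjusted p = 0.498 by limma). Beyond Aldh3b2, Acy3 and Nudt8 differed by -0.06 and -0.03. On the side of Aldh3b1, Tcirg1 differed by -0.05 and Ndufs8 by -0.43 (adjusted p = 0.372 by limma). Aldh1a1 and Aldh1a7 are also neighbours on chromosome 19; Tmc1 next to Aldh1a7 differed by -0.05, and Anxa1, a phospholipid-binding protein next to Aldh1a1, fell by 0.91 (adjusted p = 0.00982 by limma). Further out, Rorb and Zfand5 differed by -0.04 and 0.06. Beside Aldh3a2 on chromosome 11, Slc47a2 differed by -0.08 and Slc47a1, an organic cation exporter, fell by 0.47 (adjusted p = 0.0389 by limma). On the side of Aldh3a1, Tnfrsf13b and Usp22 differed by -0.06 and 0.14. Anxa1 lost its call without Klf5-deleted 1 (adjusted p = 0.0599 by limma), and Slc47a1 without any array other than Klf5-deleted 3 (adjusted p of 0.0865 to 0.149).

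The members were also set against epithelial genes, since these too were lower. The median of the 17 general epithelial markers on each array was 8.86, 9.15 and 9.04 in Klf5-deleted bladders and 10.31, 9.92 and 10.44 in controls, a difference of -1.21. Relative to this median, Aldh1a7 was lower in Klf5-deleted bladders by a further 1.82, Aldh3b2 by 1.48, Adh1 by 1.38 and Aldh3b3 by 0.59. None of these 4 values had overlapping groups, and each had an exact permutation p of 0.1, the smallest possible. The other 6 members differed little themselves, so their values on that scale, 0.99 to 1.13, only restate the fall of the markers. The median of the 13 differentiated urothelial markers was 8.31, 8.64 and 8.23 on the Klf5-deleted arrays and 10.43, 10.25 and 10.59 on the control arrays, a larger difference of -2.03. Against it, Aldh1a7, Aldh3b2 and Adh1 were lower by 0.99, 0.66 and 0.55, and Aldh3b3 stood 0.24 higher. On that scale Adh1 and Aldh3b3 each had an exact permutation p of 0.4.

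The 6 members that did not pass differed by -0.22 to -0.07, a range that also holds the medians of basal urothelial genes (-0.17) and endothelial genes (-0.14), and lies near those of mesenchymal (-0.06) and smooth muscle (-0.30) genes. Such values do not show in which cells a gene is expressed; which cells of the bladder wall gave the readings, and so the word epithelial in the name of the set, was not tested.

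**Figure D4:**
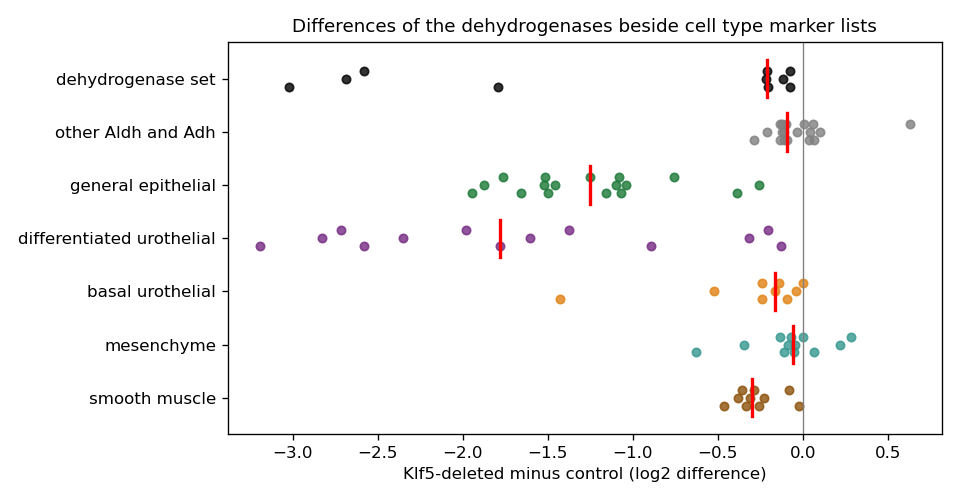
Log2 difference (Klf5-deleted minus control) of each gene in the dehydrogenase set, the rest of its families and 5 marker lists; red bars mark list medians and vertical offsets only separate points. The members fall apart into 4 between -3.02 and -1.79 and 6 between -0.22 and -0.07, while the general epithelial genes have a median of -1.25.

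Outside both families, the genes whose values followed each fallen member most closely over the 6 arrays were found by the root-mean-square distance between profiles, each value taken minus the mean of its gene. Around Aldh1a7 they were Tmem45b, Upk2 and Plet1, at 0.158, 0.169 and 0.194 log2 units. Around Aldh3b2 they were Plet1, Tmprss2 and Mal, at 0.146, 0.150 and 0.164. Aldh3b3 had closer neighbours, Prom2, Krt8 and Atp10b, at 0.091, 0.107 and 0.116. The nearest to Adh1 were Plet1, Upk1a and Snx31, at 0.260, 0.266 and 0.278. All 10 of these genes fell past the threshold; the difference between groups makes up most of such a profile, so the likeness is a description.

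Genes of neighbouring reactions were described by lists. Of 17 retinol dehydrogenases and related short-chain enzymes none passed, with a median of 0.01. The largest difference among them was that of Rdh10, the main retinol dehydrogenase of the embryo, which read 11.87, 11.75 and 12.03 in Klf5-deleted bladders and 11.53, 11.48 and 11.51 in controls, without overlap (difference 0.38, adjusted p = 0.0801 by limma). Of 16 genes of retinoid storage, breakdown and reception 2 rose and none fell, where 0.386% of all genes rose. The median of this list was 0.06, and its mean on each array lay at 9.37 to 9.50 in Klf5-deleted bladders and at 9.10 to 9.23 in controls. Those that rose were Crabp2, which carries retinoic acid to its receptors, by 0.60 (adjusted p = 0.00826 by limma) and the retinoid X receptor gene Rxrg by 1.00 (adjusted p = 0.0456 by limma). Crabp2 passed without each array in turn, while Rxrg did not without Klf5-deleted 2 or 3 or control 1 or 3 (adjusted p of 0.106 to 0.166). Rxrg read 7.73, 8.23 and 8.39 in Klf5-deleted bladders and 6.91, 7.37 and 7.08 in controls. The mean of 10 skeletal muscle genes, none of which passed, was 9.22, 9.60 and 10.26 against 8.67, 9.60 and 8.88, with a median difference of 0.67. The part of skeletal muscle transcripts in the Rxrg readings was not tested. Rarb, a retinoic acid receptor gene, and Stra6, the membrane receptor for retinol-binding protein, were named after their values were seen. Rarb read 11.87, 11.97 and 11.67 in Klf5-deleted bladders and 11.37, 10.99 and 11.38 in controls, without overlap (difference 0.59, adjusted p = 0.0745 by limma). Stra6 did not overlap between the groups either, with a difference of 0.42 (adjusted p = 0.156 by limma). Rxra, of the same list, went the other way, lower without overlap (difference -0.21, adjusted p = 0.286 by limma), as were 11.8% of all genes. The share of all genes higher without overlap was not counted. Crabp1 (0.83) and Lrat (0.72), also named after their values were seen, add to the list mean. Their groups overlapped and neither passed (adjusted p = 0.290 and 0.626 by limma). Rara, Rarg, Rxrb, Cyp26a1 and Cyp26b1 of the same list differed by -0.09 to 0.09. None of 17 aldo-keto and carbonyl reductases passed, with a median of 0.02. Akr1c18, which inactivates progesterone, had the largest difference of that list, -0.69, and read 7.23, 5.72 and 5.69 in Klf5-deleted bladders and 5.59, 9.46 and 5.68 in controls; it was high on the array rich in placental transcripts.

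Of 12 genes of other aldehyde and fatty alcohol reactions 1 fell. Far2, a reductase that makes fatty alcohols, read 10.08, 10.56 and 10.45 in Klf5-deleted bladders and 11.11, 11.02 and 11.02 in controls, and was 1.61-fold lower (adjusted p = 0.0383 by limma). Its call held without Klf5-deleted 1 and was lost without any other array (adjusted p of 0.0529 to 0.148). Among 23 glutathione and NRF2 target genes none passed. Gstm1, a glutathione transferase, differed most, by -0.78, with 9.93, 9.83 and 10.08 in Klf5-deleted bladders against 11.08, 10.67 and 10.44 in controls; the groups did not overlap and the adjusted p was 0.0606 by limma. Of 20 cytochrome P450, conjugation and aryl hydrocarbon receptor genes 1 fell: Cyp4f39, a fatty acid hydroxylase of the skin barrier, read 7.03, 6.97 and 7.03 in Klf5-deleted bladders and 7.51, 7.60 and 7.98 in controls, and was 1.61-fold lower (adjusted p = 0.0381 by limma). That call held without control 3 and was lost without any other array (adjusted p of 0.0526 to 0.145). The medians of these 3 lists lay between -0.05 and -0.0043.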

How the data were processed

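Array values of 6 bladder pools, 3 per genotype, were analysed. The deposited values are log2 levels, 1 per feature and array, which the authors made with RMA (background correction, quantile normalization, probe summary) per the submitters' processing notes. RMA's version is not given in the sources used here, nor is the build, and the log2 scale was read from values spanning 3.24 to 14.6. No feature could be called above background, and the number of arrays limits the precision. Of 35557 features, 21789 had a single symbol in the platform annotation, 1621 several and 12147 none; the brightest feature per gene left 19938 genes, with no filter on low values. Klf5-deleted minus control was fitted with limma 3.58.1 in R 4.3.3 (lmFit, eBayes, two-sided) with Benjamini-Hochberg adjustment over all genes and a threshold of 0.05. Paralog and epithelial comparisons used exact permutation of arrays. The procedure was tested on simulated data. Promoter windows came from RefSeq tables and were aligned with Biopython 1.88.

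The members and gene lists were chosen with earlier results of these data known. Named genes are Klf5, the members, the largest differences among other Aldh and Adh genes, pathway genes past the threshold (or the largest difference where none passed), and the 3 nearest profiles; flanking genes and single Aldh3b3 features were added later. Alternatives were other feature sets, filters, variance priors, centrings, a replicate block and leaving out each array.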

Additional observations from a re-analysis of the deposited data

How the results depend on the processing

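The fall of Aldh1a7, Aldh3b2 and Aldh3b3 stayed past the threshold in each alternative that tested them with the brightest or mean feature; the mean of Aldh1a7 was too low for the fit of genes above the median level. The number of members lower past the threshold was 4 in the main analysis and 3 to 4 when 1 array was left out. The rise of Aldh1a2, the 1 other Aldh or Adh gene past the threshold, gave 0 to 1 when 1 array was left out and 0 in the fit of all features and with the replicate block. All genes past the threshold numbered 395. The fit of all 35557 features gave 218, a count of features and not of genes. The number of genes was 239 among those above the median level (fewer genes tested) and 1633 with arrays centred on housekeeping genes. It was 110 with the replicate block and 141 to 349 without 1 array.

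Replicate numbers did not pair the arrays: same-numbered samples correlated at 0.009, 0.031 and 0.079 in their deviations from the group means. With the replicate block Adh1 had an adjusted p of 0.0872 by limma at a difference of -2.58, and Klf5, Aldh1a2, Far2, Cyp4f39, Crabp2, Rxrg and Slc47a1 also lost their calls (adjusted p of 0.0535 to 0.137; Crabp2 0.0614), while Anxa1 did not (0.0315). Beside the alternatives already given for Aldh3b3, the Aldh3b3 feature whose groups overlapped gave -0.22.

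Centring on housekeeping genes turned Aldh1a1 to 0.0071, Aldh3a1 to 0.13, Aldh3a2 to 0.10, Aldh3b1 to 0.0028 and Adh7 to 0.14, and Aldh1a1 ran from -0.35 to 0.03 without 1 array, the high end without control 2. Between Aldh3a1 and Aldh3a2 the difference of differences ran from -0.0476 to 0.12 without 1 array, and between Aldh3b2 and Aldh3b3 it was -1.10 with the mean of all features. Relative to the differentiated urothelial median, the values were 1.83 for Aldh1a1, -0.99 for Aldh1a7, 1.81 for Aldh2, 1.95 for Aldh3a1, 1.92 for Aldh3a2, 1.82 for Aldh3b1, -0.66 for Aldh3b2, 0.24 for Aldh3b3, -0.55 for Adh1 and 1.96 for Adh7. These shifts follow from the larger fall of that list. The cause of the other changes was not tested.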
